A study of Homo sapiens with 6 samples.

Results

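The transcripts of 10 genes that report on WNT signalling and on the intestinal stem cell state were followed in HT29 cells deprived of histidine or of tryptophan. The genes, given by symbol, were LGR5, ASCL2, AXIN2, NKD1, RNF43, ZNRF3, NOTUM, MYC, SOX9 and TCF7. Each was matched by its Ensembl identifier in gencode release 44, and all 10 were found among the 60676 genes of the deposited tables. All 10 also passed the filter on low values in each comparison, a mean of at least 10 normalized counts.

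HT29 is a human colorectal adenocarcinoma line, labelled wild type (WT). The cells were kept for 48 h in control medium (untreated), in medium without histidine (histidine-depleted) or in medium without tryptophan (tryptophan-depleted), and RNA of 2 samples per condition was sequenced. In the study, cells short of tryptophan serve as the comparison for stress that the loss of any amino acid may bring. Its histidine-free medium was built on RPMI and its tryptophan-free medium on DMEM F-12, both with dialyzed serum, while the sources used here name a control medium, RPMI, for proteomics cultures of the study but not for these RNA samples. An effect of the lost amino acid and of the base medium or serum cannot be told apart. Nothing states that the replicates were separate cultures, so the spread between these samples may be technical. The test used below also draws on the spread of other genes, separately in each comparison. A small p-value therefore does not measure the spread of that gene alone, and its size is not comparable between comparisons.

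The libraries held 46390819 to 64388876 reads, recovered from the deposited values, in which 100% of the nonzero entries lay within 0.1 of a whole read. Replicates differed by more than counting noise, with a chi-square per degree of freedom of 1.85 to 8.77. The epithelial label was checked on 9 markers of colon epithelium, which summed to 438339 to 581340 normalized counts per library, a sum led by KRT8. By the test used below, 4 of the 9 were higher and 5 lower without histidine, beside 39.1% and 38.2% of all genes, and 4 were higher and 2 lower without tryptophan, beside 36.1% and 34.8%. KRT19 was at 292% of untreated without histidine, LGALS4, a galectin of the gut epithelium, at 33.8% and CDX2, a homeobox factor of the intestine, at 38.4%, and without tryptophan they were at 159%, 108% (not past the threshold) and 84.7%. CDX1, the relative of CDX2, held 21.9 and 18.9 normalized counts in untreated, 0 and 0 in histidine-depleted and 5.34 and 2.75 in tryptophan-depleted libraries, so that it was lower in each depletion with no overlap and at or under 3 reads in both histidine-depleted libraries and 1 tryptophan-depleted library. The part of these markers in the results was not tested. The 13 markers of leukocytes, mast cells, endothelium, fibroblasts and muscle summed to 144 to 152 in untreated, 84.9 to 90.6 in histidine-depleted and 87.5 to 99.8 in tryptophan-depleted libraries, with 7 to 10 of them at or under 3 reads, and their part in the results was not tested. In bulk RNA, fewer cells that express a gene and less RNA per cell cannot be told apart.

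In WNT signalling, a ligand bound to a Frizzled receptor and an LRP co-receptor keeps beta-catenin from being destroyed by a complex of APC, AXIN and kinases, and beta-catenin then switches on genes together with TCF/LEF factors. In the intestine this signal maintains the stem cells at the base of the crypt. Many of the genes it switches on restrain it in turn: AXIN2 rebuilds the destruction complex, NKD1 acts on dishevelled, RNF43 and ZNRF3 remove Frizzled receptors from the cell surface, and NOTUM inactivates the ligand outside the cell. LGR5 is a receptor for R-spondins, which hold RNF43 and ZNRF3 in check. HT29 cells carry truncated APC, so their pathway is active without added ligand.

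Histidine depletion lowered most of these transcripts, and tryptophan depletion moved them unevenly. Normalized counts are read counts divided by a size factor of each library. With limma on log2(normalized count + 1) and a threshold of 0.05 on the adjusted p, 9 of the 10 genes were lower and 0 higher after histidine depletion. MYC was the gene not past the threshold. Across all 18288 genes tested, 38.2% were called lower and 39.1% higher. With an added limit of 1 on the absolute log2 fold change, 8 of the 10 genes were lower, against 16.1% of all genes, and 0 were higher, against 16.4%. The median log2 fold change of the 10 genes was -1.35, and that of all tested genes was 0.010. The 10 genes were chosen with earlier results of these data known. Their counts and medians beside those of all genes, here and below, therefore describe the set and do not test it.

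After tryptophan depletion, 6 of the 10 genes were lower and 2 were higher, against 34.8% and 36.1% of the 17960 genes tested. The higher genes were RNF43 and AXIN2, and those not past the threshold were NKD1 and NOTUM. With the limit of 1 on the log2 fold change, LGR5 and ASCL2 were lower, against 10.4% of all genes, and 0 were higher, against 10.0%. The count of higher genes was 1 without tryptophan-depleted replicate 2, where AXIN2 was not called, and 3 without untreated replicate 2, where NKD1 was called too. The median of the 10 genes was -0.35, beside 0.013 for all genes. Both comparisons use the same untreated libraries. Compared directly, with all 6 libraries scaled together, 8 of the 10 genes were lower after histidine than after tryptophan depletion and 2, MYC and LGR5, were higher. The count of higher genes was 1, with LGR5 not called, when either untreated library or replicate 2 of either depletion was left out. Among the 18276 genes tested there, 37.8% were lower and 39.1% higher. With the limit on the fold change these were 4 genes lower and 0 higher, against 15.6% and 16.4% of all genes, and the median of the 10 genes was -0.93, beside 0.018.

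**Figure D1:**
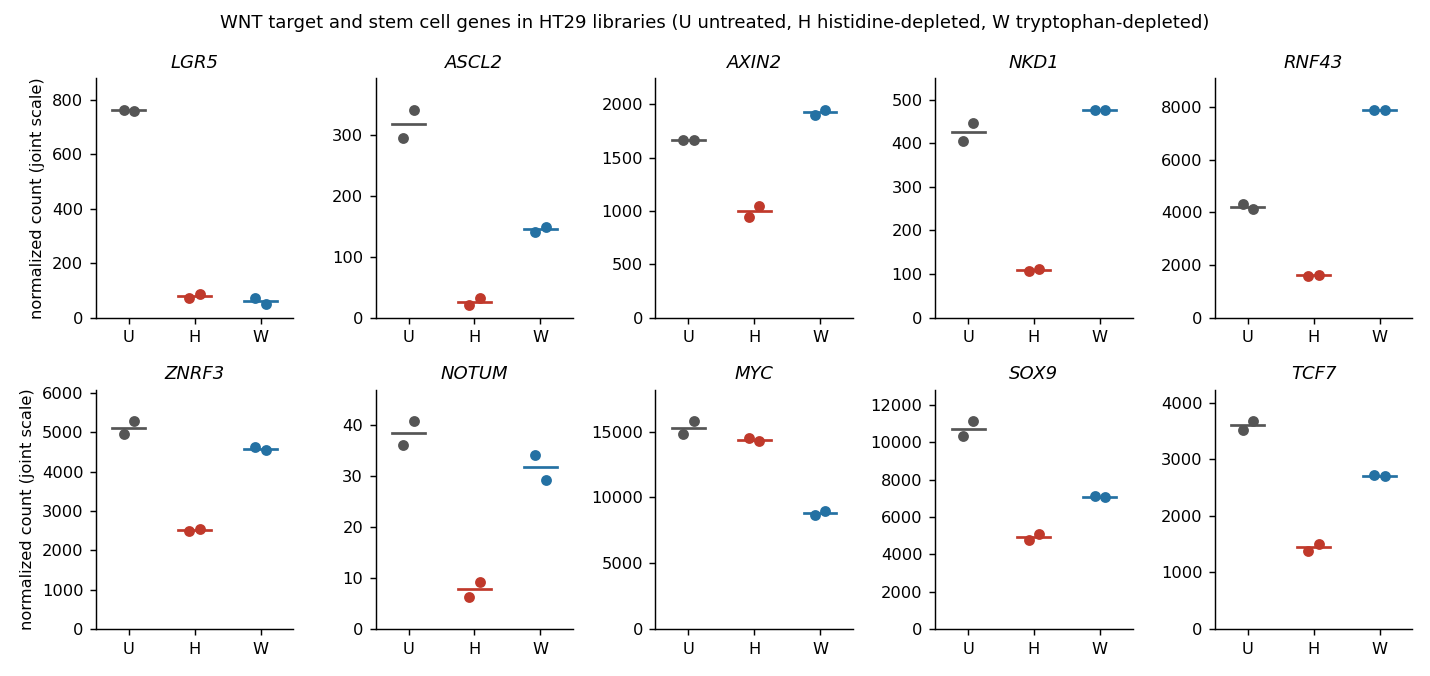
Normalized counts of the 10 genes in each library, with all 6 libraries scaled together; every vertical axis starts at 0, points are libraries and lines are means of 2. LGR5 was low after both depletions, RNF43 lay highest after tryptophan depletion, and MYC was lowest there.

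LGR5 and ASCL2 had the largest decreases of the 10 genes in each comparison with untreated cells. LGR5 (ENSG00000139292) lies on chromosome 12 (71439798 to 71586310, plus strand, GRCh38). The untreated libraries held 756 and 755 normalized counts of LGR5 and the histidine-depleted ones 71.4 and 87.1. The groups lay far apart, and the histidine-depleted mean was 10.5% of the untreated mean (change -3.24 on the log2 scale, standard error, SE, 0.117, limma adjusted p = 7.37e-18). In the tryptophan table, LGR5 went from 751 and 747 to 68.6 and 49.5 normalized counts, or 7.88% of untreated (change -3.66 on the log2 scale, SE 0.122, limma adjusted p = 1.03e-60). Both calls held with limma without the trend, at adjusted p = 0.000742 without histidine and 0.00131 without tryptophan. LGR5 was thus low after either depletion, and the depleted groups lay close to each other. The direct difference, histidine minus tryptophan, was 0.40 on the log2 scale with a 95% interval from 0.07 to 0.74 (limma adjusted p = 0.0292). That call held in 7 of 16 alternative settings, with adjusted p-values from 0.00242 to 0.366, and was lost, among others, without either untreated library (adjusted p = 0.0646 and 0.0647), when replicate 2 of the histidine-depleted (0.26, adjusted p = 0.218) or of the tryptophan-depleted group (0.16, adjusted p = 0.366) was left out. Without tryptophan-depleted replicate 1 the difference was 0.64 (adjusted p = 0.00242).

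ASCL2 (ENSG00000183734; chromosome 11, 2268498 to 2270588, minus strand) encodes a basic helix-loop-helix factor of the crypt stem cell programme. Its 291 and 339 normalized counts in untreated libraries went to 20.8 and 31.4 after histidine depletion, or 8.28% of untreated. The log2 fold change of ASCL2 was -3.57, the most negative of the 10 genes in this comparison (SE 0.191, limma adjusted p = 1.58e-14). After tryptophan depletion ASCL2 held 137 and 147 against 289 and 335, or 45.4% (change -1.13 on the log2 scale, SE 0.119, limma adjusted p = 4.6e-16). ASCL2 therefore kept more of its transcript without tryptophan than without histidine, with no overlap among the 3 conditions. The direct difference was -2.46 (SE 0.184, limma adjusted p = 1.48e-09).

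**Figure D2:**
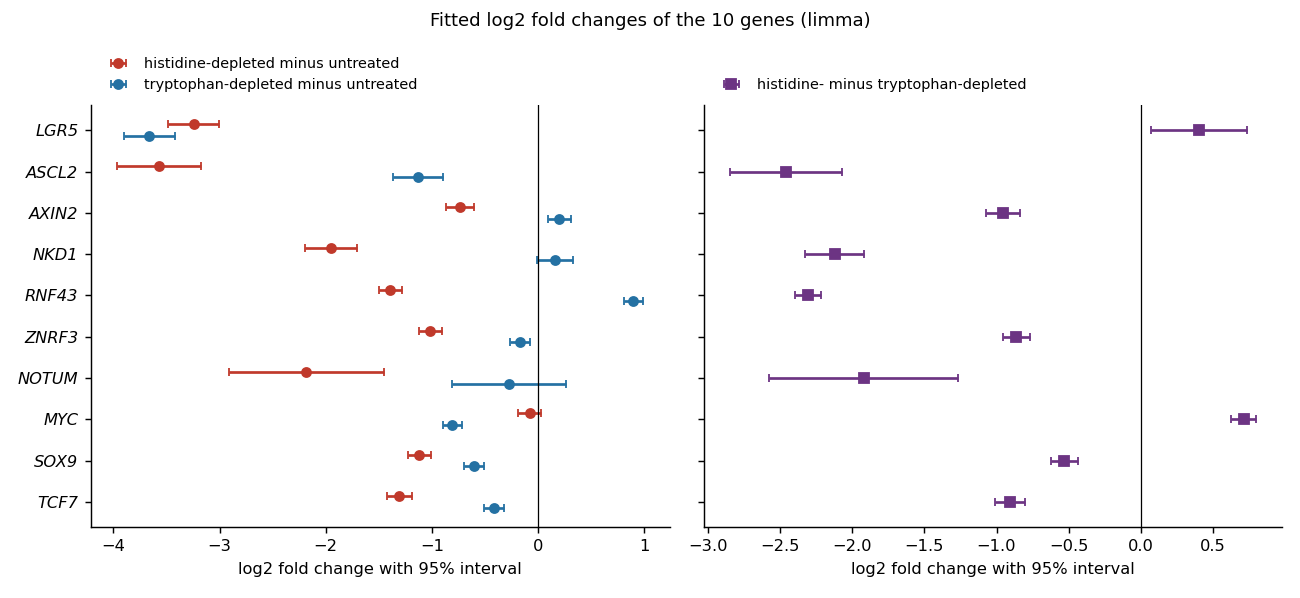
Log2 fold change of each of the 10 genes in the 3 comparisons, with points for the limma estimates and bars for their 95% intervals. LGR5 lay at -3.24 and -3.66 in the comparisons with untreated cells, while RNF43 lay at -1.39 without histidine and at 0.90 without tryptophan.

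The ubiquitin ligases RNF43 and ZNRF3 are relatives that act on the same receptors, and they differed after tryptophan depletion. RNF43 (ENSG00000108375) lies on chromosome 17 (58353676 to 58417595, minus strand). It went from 4271 and 4111 normalized counts in untreated to 1579.5 and 1617 in histidine-depleted libraries, or 38.1% (change -1.39 on the log2 scale, SE 0.0535, limma adjusted p = 2.59e-17). Without tryptophan RNF43 rose instead, from 4242 and 4068 to 7706 and 7773, or 186% of untreated (change 0.90 on the log2 scale, SE 0.0468, limma adjusted p = 1.71e-39). The 3 conditions did not overlap, and the direct difference was -2.30 (SE 0.0418, limma adjusted p = 2.6e-17). A second protein-coding gene model on the same strand, ENSG00000285897, covers 68.4% of the exonic bases of RNF43 but held only 5.09 to 17.1 normalized counts. How reads lying in both models were counted is not given in the sources used here.

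The start-site windows of RNF43 and TCF7 are shown because RNF43 changed in opposite directions and because TCF7 encodes a factor of the family that binds the searched motif. Each window runs from 250 bases before to 50 bases after a RefSeq start site (GRCh38.p14), and only these 2 of the 10 genes had an entry in the sequence table used. The RNF43 window is chr17:58417485-58417784 on the minus strand and the TCF7 window chr5:134123368-134123667 on the plus strand. The TCF7 window shown is the one with a match, and its start site lies inside the gene. The other TCF7 window, chr5:134115363-134115662, lies nearer the first base of the gene and held no match. Capitals mark a TCF/LEF match.
RNF43: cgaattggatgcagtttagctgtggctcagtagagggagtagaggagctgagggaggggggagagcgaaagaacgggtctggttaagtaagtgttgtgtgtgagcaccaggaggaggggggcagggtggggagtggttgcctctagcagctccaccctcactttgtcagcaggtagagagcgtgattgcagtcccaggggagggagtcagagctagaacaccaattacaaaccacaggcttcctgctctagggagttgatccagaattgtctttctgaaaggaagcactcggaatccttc
TCF7: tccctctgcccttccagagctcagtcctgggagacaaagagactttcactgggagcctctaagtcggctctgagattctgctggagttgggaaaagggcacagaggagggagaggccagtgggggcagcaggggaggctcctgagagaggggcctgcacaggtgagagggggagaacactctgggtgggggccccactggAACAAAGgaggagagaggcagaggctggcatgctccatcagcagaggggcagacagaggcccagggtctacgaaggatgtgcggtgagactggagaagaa

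Each gene has 2 such windows, and both strands of all 4 were searched for TCF/LEF words, first for CTTTGAA, next for CTTTGAT, then for CTTTGTA and last for CTTTGTT, and for the E-box words CAGCTG and, separately, CACGTG. A TCF/LEF word was found in 1 of the 4 windows, CTTTGTT on the opposite strand of the TCF7 window shown, at position -50 from the start site. It overlapped no other match, since neither E-box word was found in any of the 4. Among 35116 windows of the same length, 13.8% held a TCF/LEF word, 17.9% CAGCTG and 7.26% CACGTG. A match describes letters only, and a missing match says only that these words are not in the window.

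ZNRF3 (ENSG00000183579; chromosome 22, 28883572 to 29057488, plus strand) held 4908 and 5259.6 normalized counts in untreated and 2498 and 2534 in histidine-depleted libraries, or 49.5% of untreated (change -1.01 on the log2 scale, SE 0.0527, limma adjusted p = 8.92e-15). In the tryptophan table it held 4498 and 4466 against 4875 and 5205, or 88.9% (change -0.17 on the log2 scale, SE 0.0475, limma adjusted p = 0.000942). The groups did not overlap, but the smaller decrease was not past the threshold without tryptophan-depleted replicate 2 (adjusted p = 0.0648) or with limma without the trend (0.0803), within a range of 1.23e-07 to 0.0803 over all alternatives. The direct difference of ZNRF3 was -0.86 (SE 0.0433, limma adjusted p = 6.53e-12).

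Among the inhibitors inside the cell, AXIN2 and NKD1 fell by unequal amounts without histidine. AXIN2 (ENSG00000168646; chromosome 17, 65528563 to 65561648, minus strand) is often read as a general reporter of beta-catenin activity. It held 1647 and 1658 normalized counts in untreated and 941 and 1045 in histidine-depleted libraries, or 60.1% (change -0.74 on the log2 scale, SE 0.0647, limma adjusted p = 2.13e-10). This was the smallest of the 9 called decreases. In the tryptophan table AXIN2 was higher, with 1854 and 1915 against 1636 and 1641 (change 0.20 on the log2 scale, SE 0.0545, limma adjusted p = 0.000566). That increase, to 115% of untreated, was not past the threshold without tryptophan-depleted replicate 2 (0.18, adjusted p = 0.0507), and adjusted p-values over all alternatives ran from 0.000158 to 0.0507. The direct difference of AXIN2 was -0.95 (SE 0.0566, limma adjusted p = 6.14e-11), with no overlap of the 3 conditions. A protein-coding gene model on the same strand, ENSG00000266076, covers 25.3% of the exonic bases of AXIN2 and held 0 to 0.916 normalized counts.

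NKD1 (ENSG00000140807; chromosome 16, 50548396 to 50649249, plus strand) held 400.3 and 444 normalized counts in untreated and 107 and 110.4 in histidine-depleted libraries, or 25.7% (change -1.95 on the log2 scale, SE 0.118, limma adjusted p = 1.69e-13). Without tryptophan its 464 and 469 lay above the 398 and 439 of untreated libraries, a difference of 0.16 with a 95% interval from -0.01 to 0.33 (limma adjusted p = 0.0943). It passed the threshold without untreated replicate 2 (0.23, adjusted p = 0.0192), was 0.09 without untreated replicate 1 (adjusted p = 0.400), and passed with quantile normalization (0.28, adjusted p = 0.00678). The direct difference of NKD1 was -2.12 (SE 0.0977, limma adjusted p = 1.96e-12).

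NOTUM (ENSG00000185269; chromosome 17, 81952507 to 81961840, minus strand), a secreted carboxylesterase that removes the lipid of WNT ligands, was the least abundant of the 10 genes. The untreated libraries held 35.7 and 40.5 normalized counts and the histidine-depleted ones 6.33 and 9.12, or 20.3% (change -2.18 on the log2 scale, SE 0.352, limma adjusted p = 5.05e-06). After tryptophan depletion NOTUM held 33.3 and 28.8 against 35.5 and 40.1, a difference of -0.28 with a 95% interval from -0.81 to 0.26 (limma adjusted p = 0.363), and without tryptophan-depleted replicate 2 the difference was -0.18 (adjusted p = 0.664). The groups did not overlap, and at these low counts the interval was wide. The direct difference was -1.92 (SE 0.309, limma adjusted p = 2.38e-05).

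Of the transcription factors, TCF7 and SOX9 fell after either depletion. TCF7 (ENSG00000081059; chromosome 5, 134114681 to 134151865, plus strand) encodes a TCF/LEF factor that is itself switched on by the pathway. It went from 3492 and 3656 normalized counts in untreated to 1383 and 1503 in histidine-depleted libraries, or 40.4% (change -1.31 on the log2 scale, SE 0.0574, limma adjusted p = 3.26e-16). In the tryptophan table it went from 3469 and 3618 to 2644 and 2665, or 74.9% (change -0.42 on the log2 scale, SE 0.0494, limma adjusted p = 1.6e-13). No library of one condition overlapped those of another, and the direct difference was -0.91 (SE 0.0497, limma adjusted p = 2.05e-11). SKP1, on the other strand, covers 2.08% of the exonic bases of TCF7 and held 4273 to 6882 normalized counts, and whether counting used strand is not given in the sources used here.

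SOX9 (ENSG00000125398; chromosome 17, 72121020 to 72126416, plus strand), a factor of crypt stem and progenitor cells, held 10218 and 11069.6 normalized counts in untreated and 4760.2 and 5047 in histidine-depleted libraries, or 46.1% (change -1.12 on the log2 scale, SE 0.0529, limma adjusted p = 1.48e-15). After tryptophan depletion SOX9 held 6925 and 6949 against 10149 and 10954, or 65.7% (change -0.60 on the log2 scale, SE 0.0469, limma adjusted p = 1.39e-24). Its 3 conditions were again apart, with a direct difference of -0.53 (SE 0.0448, limma adjusted p = 7.97e-09).

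MYC (ENSG00000136997; chromosome 8, 127735434 to 127742951, plus strand), a driver of growth and ribosome production, showed the other order. In the histidine table it held 14526 and 14191 normalized counts against 14651 and 15706, a difference of -0.08 with a 95% interval from -0.19 to 0.03 (limma adjusted p = 0.167). Without untreated replicate 2 the difference was -0.03 (adjusted p = 0.485). MYC passed the threshold as lower without untreated replicate 1 (-0.13, adjusted p = 0.00524), with edgeR (-0.09, adjusted p = 0.0251) and with quantile normalization (-0.34, adjusted p = 2.7e-06). After tryptophan depletion MYC fell from 14553 and 15543 to 8422 and 8784, or 57.2% of untreated (change -0.81 on the log2 scale, SE 0.0473, limma adjusted p = 1.14e-34). The histidine-depleted libraries lay above the tryptophan-depleted ones, by 0.71 on the log2 scale (SE 0.0413, limma adjusted p = 4.77e-11).

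Per kilobase of exon, which allows levels of different genes to be compared, the order changed between conditions. In untreated cells SOX9 and MYC were highest, at 2730.1 ± 147 and 2505 ± 116 normalized counts per kb (SD, n = 2), followed by ZNRF3, RNF43, TCF7, AXIN2, ASCL2 and LGR5 (146 ± 0.557), and NKD1 and NOTUM were lowest, at 24.5 ± 1.72 and 13.2 ± 1.14. No neighbours in that order overlapped. Without histidine MYC led, at 2355 ± 31.6 per kb, and SOX9 stood at 1250.2 ± 55.7. ASCL2 and LGR5, at 17.6 ± 5.12 and 15.2 ± 2.18 per kb, overlapped there. Without tryptophan RNF43 reached 1250.2 ± 0.299 per kb, above ZNRF3 at 656 ± 7.29, while LGR5 came to 11.6 ± 2.72 and overlapped NOTUM at 10.9 ± 1.18. Exon length was the union of all annotated exons, which can exceed the length of any single transcript and then lowers the value. It was 17359 bases for NKD1, 10093 for TCF7, 6109 for MYC and 3931 for SOX9. The places of these genes, MYC and SOX9 among them, depend on this choice of length. Other gene models on the same strand cover 68.4% of the exonic bases of RNF43 and 25.3% of those of AXIN2. Reads in such overlaps may not have been counted, which would lower the values of RNF43 and AXIN2. The places of RNF43 and AXIN2 in the order therefore depend on that counting.

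**Figure D3:**
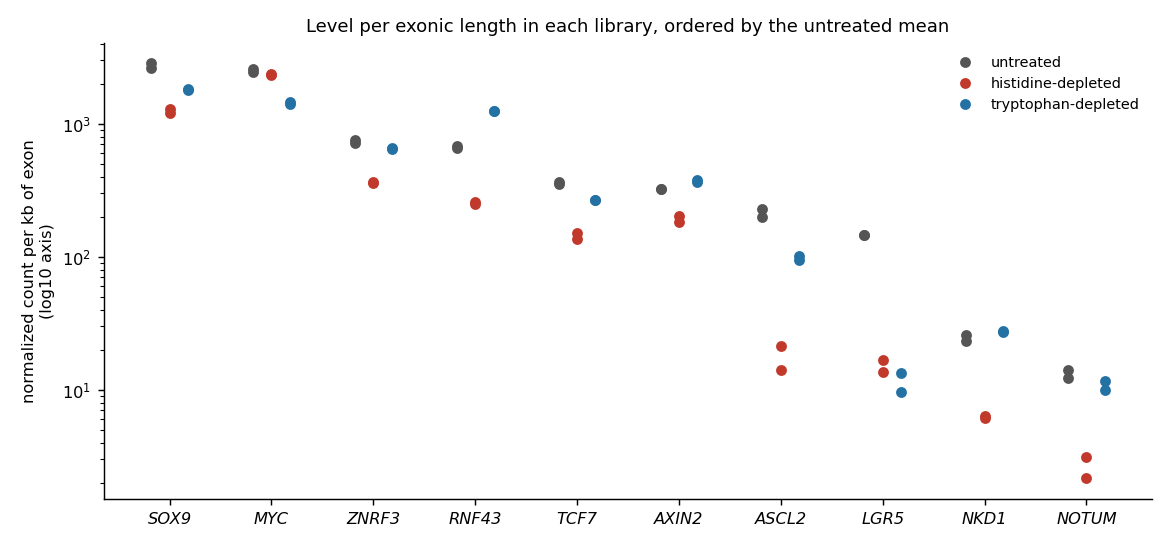
Normalized counts per kb of exon on a log10 axis for each library, with genes ordered by their untreated mean and colours for the 3 conditions. LGR5 dropped from 146 per kb in untreated cells to 15.2 without histidine and 11.6 without tryptophan, and RNF43 passed ZNRF3 without tryptophan. Another gene model on the same strand covers 68.4% of the exonic bases of RNF43, which may lower its values.

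The genes whose profile over the 6 libraries lay nearest were found by the distance between log2 values centred on each gene's mean, among 11013 protein-coding candidates (11014 for NOTUM). For LGR5 they were ADAMTS6 (distance 0.246) and RDM1 (0.403), against a median distance of 4.14 from LGR5 to all candidates. That median was 3.77 for ASCL2, 2.54 for NOTUM, 2.48 for NKD1, 2.45 for RNF43, 1.58 for TCF7, 1.43 for SOX9, 1.38 for ZNRF3, 1.32 for AXIN2 and 1.27 for MYC. The nearest to ASCL2 were GJB1 (0.478) and AQP2 (0.532), and to RNF43 PLA2G12A (0.128) and RAB3D (0.166). AXIN2 lay nearest KIAA1958 (0.0490), NKD1 nearest ACADS (0.125), ZNRF3 nearest NUDT4 (0.0511), NOTUM nearest C17orf113 (0.177), MYC nearest DNAAF5 (0.0514), SOX9 nearest POC1B (0.0668) and TCF7 nearest RPP25L (0.0467).

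The rest of the pathway was described by lists of its parts, also chosen with earlier results of these data known. Counts of called genes in each list are to be read against the 39.1% higher and 38.2% lower of all genes without histidine, and the 36.1% and 34.8% without tryptophan. Among R-spondins and their other LGR receptors, the 4 R-spondin ligands did not pass the filter on low values. Both receptors were tested, and both fell without histidine while neither passed the threshold without tryptophan. LGR4, the relative of LGR5 that is expressed more widely, went from 7863 and 7944 to 3649 and 3703 normalized counts (log2 fold change -1.10, limma adjusted p = 4.36e-16), and LGR6 from 107 and 107 to 12.7 and 12.2 (-3.01, limma adjusted p = 6.95e-11). Without tryptophan, LGR4 differed by 0.00 with a 95% interval from -0.09 to 0.09, and LGR6 by -0.21 with one from -0.54 to 0.12.

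Secreted and membrane inhibitors of WNT included genes with large decreases. Without histidine 5 of 7 tested were lower and 2 higher (median -1.95), and without tryptophan 5 of 6 were lower and 1 higher (median -2.11), beside medians of 0.010 and 0.013 for all genes. TRABD2A, a protease that inactivates WNT ligands, went from 1331 and 1203 to 117 and 128 normalized counts without histidine (log2 fold change -3.36, limma adjusted p = 6.62e-20). DKK1, an antagonist of the LRP co-receptors, went from 1152 and 1315 to 72.8 and 107 without tryptophan (-3.79, limma adjusted p = 4.59e-71), and its fold change was -1.95 without histidine. KREMEN1, a receptor for DKK1, fell to 13.1% and 45.8% of untreated.

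Of 10 genes of WNT ligands and their secretion tested in each table, among them PORCN and WLS for secretion, 3 were higher and 5 lower without histidine (median -0.24), and 6 higher and 2 lower without tryptophan (median 0.28), again to be read against 39.1% and 38.2%, and 36.1% and 34.8%, of all genes. WNT2B rose to 233% and 309.9% of untreated (log2 fold changes 1.21 and 1.63), WLS, the carrier of WNT ligands to the cell surface, rose to 188% and 115%, and WNT11 fell to 25.5% and 73.1%. WNT7B was lower without histidine (-0.81) and higher without tryptophan (0.50). Of 12 receptor genes, 1 was higher and 8 lower without histidine (median -0.52), and 3 higher and 5 lower without tryptophan (median -0.04), against those same shares. FZD2 fell from 183 and 173 normalized counts to 16.3 and 11.1 without histidine and, in the other table, from 182 and 171 to 16.6 and 18.9.

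Of the destruction complex and dishevelled genes, 1 was higher and 0 lower past the limit of 1 on the log2 fold change without histidine, beside 16.4% and 16.1% of all genes, and 0 in either direction without tryptophan, beside 10.0% and 10.4%. All 18 were tested, with 10 higher and 5 lower without histidine (median 0.27) and 12 higher and 3 lower without tryptophan (median 0.32). CTNNB1, which encodes beta-catenin, was higher without histidine (0.37, limma adjusted p = 3.59e-07) and lower without tryptophan (-0.24, limma adjusted p = 3.15e-06). CTNNB1, CCND1, CD44, EPHB2, PROM1, TERT, AXIN1 PORCN and, among the epithelial markers, KRT8 and CDX1 were named after their values were seen, as was SKP1 for its overlap with TCF7, and the other genes of the lists by the fixed rule. CSNK1D, a casein kinase, rose to 209% and 126% of untreated, and BTRC, which marks beta-catenin for degradation, to 149.8% and 186%. AXIN1, the constitutive relative of AXIN2, was lower without histidine (-0.24) and higher without tryptophan (0.41). Among 11 TCF/LEF factors and partners, 4 were higher and 5 lower in each table (medians -0.28 and -0.07), beside 39.1% and 38.2% of all genes without histidine and 36.1% and 34.8% without tryptophan. BCL9L, a co-activator of beta-catenin, rose to 255% and 177% of untreated, and TLE3, a co-repressor, to 241% and 163%.

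**Figure D4:**
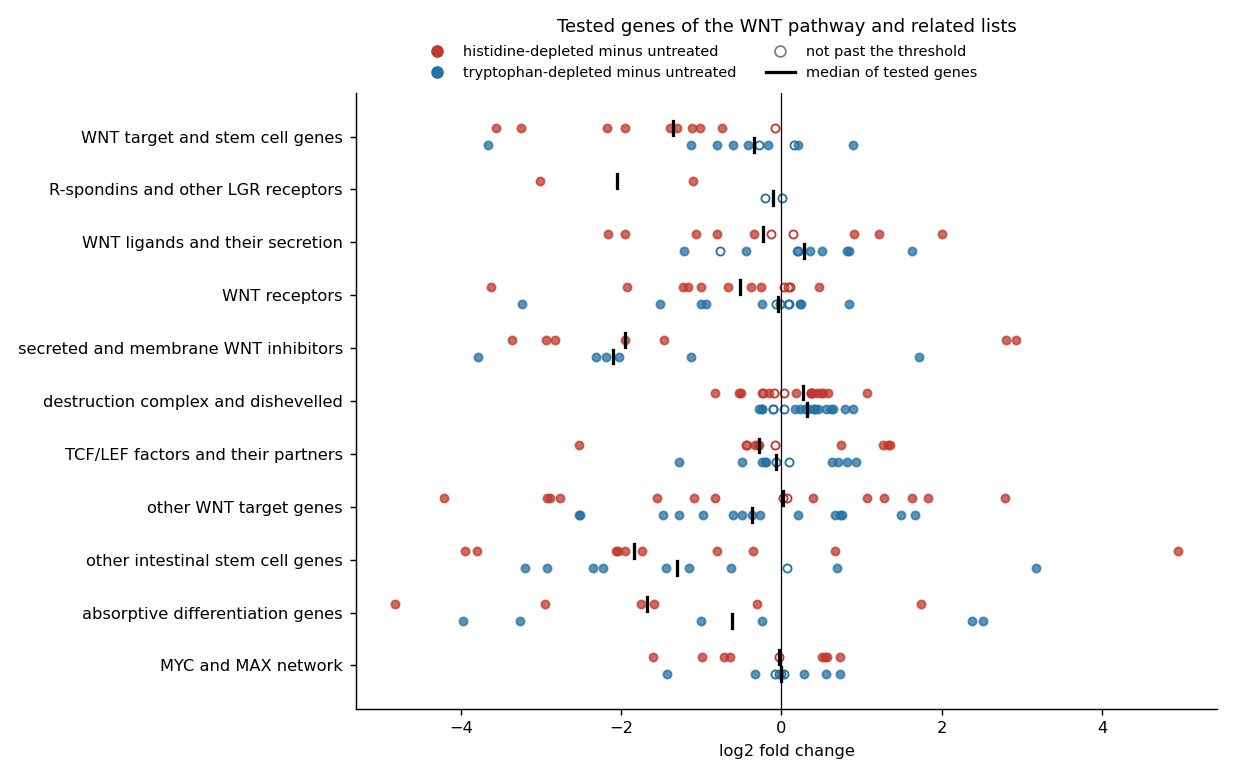
Log2 fold changes of the tested genes of each pathway list after histidine and after tryptophan depletion, with points for genes (open where not past the threshold) and a line for the median of each list. The secreted and membrane inhibitors had medians of -1.95 and -2.11, and the destruction complex genes 0.27 and 0.32.

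Of 15 other WNT targets tested, 6 were higher and 7 lower without histidine (median 0.02), and 6 higher and 9 lower without tryptophan (median -0.37), beside 39.1% higher and 38.2% lower of all genes in the former and 36.1% and 34.8% in the latter. MYB, a factor of crypt progenitors, went from 2301 and 2530.0 normalized counts to 111 and 151 without histidine (log2 fold change -4.21) and to 17.4% of untreated without tryptophan. SP5 fell to 12.9% and 16.9%, and CD44 to 14.7% and 41.1%. FOSL1, an AP-1 subunit, rose to 693% without histidine and to 116% without tryptophan, and EPHB2 to 354% and 158%. CCND1, the cyclin of G1, was higher without histidine (1.29) and lower without tryptophan (-0.27).

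Among 10 other stem cell genes tested, 8 were lower and 2 higher without histidine (median -1.84). Without tryptophan 7 were lower and 2 higher (median -1.30). Of all genes, 38.2% were lower and 39.1% higher without histidine (median 0.010), and 34.8% and 36.1% without tryptophan (median 0.013). The median after histidine depletion did not change when the gene at or under 3 reads in the depleted libraries, TERT, was set to that floor. CDCA7, which is switched on in proliferating progenitors, went from 7337 and 7077 to 458 and 588 normalized counts without histidine (-3.79) and to 10.9% of untreated without tryptophan. SLC12A2 fell to 24.2% and 19.7%, MEX3A to 25.9% and 36.7%, and PROM1 to 57.4% and 45.1%. SMOC2, a matrix protein reported in LGR5 cells, moved the other way, from 8.65 and 4.94 to 235 and 232 without histidine (4.95, limma adjusted p = 1e-14) and to 53.0 and 84.5 without tryptophan (3.18, limma adjusted p = 6.2e-16).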

How the data were processed

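RNA-seq of HT29 cells in 3 conditions was used, with 2 libraries each. The authors aligned reads with STAR 2.7.10a, counted them with HTSeq 2.0.5 and deposited a table per depletion of normalized counts (unit: signal), that is, counts over DESeq2 size factors. The libraries were made with a stranded kit, but how counting treated strand, molecular identifiers and multimapping reads is not given in the sources used here. Dividing each deposited value by the step of its library gave whole reads for 100% of values (tolerance 0.1). Of 60676 identifiers, 60357 were found in gencode release 44 and 319 were not. The study names an earlier gencode release for counting. Exon lengths and overlaps taken here from release 44 may therefore differ from those behind the counts.

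Depletions were compared with untreated cells within each table. The direct comparison used recovered reads of all 6 libraries scaled together. Tests used limma 3.58.1 in R 4.3.3 with a trend, two-sided, on the log2 of normalized counts plus a pseudocount of 1, keeping genes whose mean was 10 or more, with Benjamini-Hochberg adjustment over all tested genes and a threshold of 0.05. Fold changes on this scale understate the change of low genes. The fits were also run on simulated counts in which few genes changed and all had the same spread beyond counting noise. These data differ in both respects, so that run does not show how often calls are wrong here. The study names DESeq2 for its tests; limma was used because the deposited values are normalized. Run on the recovered reads, edgeR 4.0.16 called 7169 genes higher and 7111 lower without histidine, 6490 and 6349 without tryptophan, and 7090 and 7243 between the depletions; DESeq2 1.42.0 called 6330 and 6154, 5423 and 5354, and 6479 and 6261. Figures were drawn with matplotlib 3.10.9 and tables read with pandas 2.3.3 (Python 3.11.15).

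The 10 genes and all lists were chosen with earlier results of these data known. All 10 are named. From each list, and for each depletion, up to 3 genes could be named, those with the largest absolute fold change past the threshold, a mean of at least 100 in the higher group and no overlap, and not all of these are printed. For each of the 10 genes the 2 nearest profiles were found.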

Additional observations from a re-analysis of the deposited data

Results flagged for a closer look

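RNF43 and AXIN2 moved in opposite directions under the 2 depletions: each was lower than untreated without histidine and higher without tryptophan, and the difference between the depletions passed the threshold by limma over all 6 libraries. The difference, histidine minus tryptophan, was -2.30 for RNF43 and -0.95 for AXIN2 on the log2 scale, and both kept their direction and call in all 16 alternative settings of the direct comparison. The rise of AXIN2 against untreated was small (0.20) and was not past the threshold without tryptophan-depleted replicate 2 (0.18).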

How the results depend on the processing

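Of the results for single genes under alternative settings, 420 kept direction and call, 12 lost the call, 5 gained it and 0 reversed. The number of the 10 genes higher without histidine than without tryptophan, 2 as reported, was 1 with no filter, with limma without trend, with edgeR, with DESeq2 and with only the 4 libraries compared, the call lost being that of LGR5, and ranged from 1 to 2 when single libraries were left out. The number higher without tryptophan than untreated ranged from 1 to 3 in the same way, with AXIN2 lost without tryptophan-depleted replicate 2 and NKD1 gained without untreated replicate 2. The cause was not tested. With the replicate block the numbers higher and lower were 0 and 9, 2 and 6, and 2 and 8, as without it, and no call of the 10 genes changed. Libraries with the same number did not deviate together (correlations of 0.042, 0.00196 and -0.041), so the numbers do not show a pairing. NOTUM gives no value with a mean of at least 50. No setting moved the median of all genes by over 0.1. With 2 libraries per group, intervals are wide for genes with few counts such as NOTUM. The size of the smallest adjusted p-values depended on how limma shares spread over genes. For RNF43 without tryptophan it was 1.71e-39 as reported and 0.00168 with limma without the trend.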

Other observations

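Other groups around these genes were also measured. Of 6 tested genes of absorptive differentiation, 1 was higher and 5 lower without histidine (median log2 fold change -1.67), and 2 were higher and 4 lower without tryptophan (median -0.62), beside 39.1% higher and 38.2% lower, and 36.1% and 34.8%, of all genes. KRT20, a keratin of differentiated colon cells, went from 10159.5 and 10690.1 normalized counts to 34603 and 34912 without histidine (log2 fold change 1.74, limma adjusted p = 2.08e-19) and to 522% of untreated without tryptophan (2.38, limma adjusted p = 7.07e-85). CDHR5, a cadherin of the brush border, was at 81.7% of untreated without histidine (limma adjusted p = 0.00310) and at 574% without tryptophan (limma adjusted p = 5.96e-87). MALL fell to 29.6% and 84.4%.

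In the MYC and MAX network, 9 genes were tested, with 4 higher and 4 lower without histidine and 3 higher and 2 lower without tryptophan, beside 39.1% and 38.2%, and 36.1% and 34.8%, of all genes. MXD1, a partner of MAX that opposes MYC, rose to 166% of untreated in each table. MXD3 fell to 32.9% and 37.1%. MXI1 and MYCL were lower without histidine (-0.99 and -0.72) and higher without tryptophan (0.28 and 0.56).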
